A study of Mus musculus with 16 samples.

Results

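Of the 54658 genes listed in the count tables, 8 are described here, which are long noncoding RNAs of 2 kinds. The first 4, Malat1, Neat1, Meg3 and Kcnq1ot1, are RNAs that stay in the nucleus. The other 4, Gas5, Snhg1, Snhg3 and Snhg12, are host genes of small nucleolar RNAs (snoRNAs). They were chosen with earlier results of these data known and were found by gene symbol, with all 8 symbols present in the tables. C17.2α cells, a mouse neural cell line derived from cerebellum and expressing the thyroid hormone receptor TRα1, received a strobilurin or its solvent DMSO for 24 h, in serum stripped of thyroid hormone and without added T3. The data used are 2 DMSO libraries, azoxystrobin at 1000 nM, and picoxystrobin, pyraclostrobin and trifloxystrobin at 30, 100, 300 and 1000 nM, thus 15 libraries of total RNA in all. Every library, DMSO included, came from the same line that carries TRα1. Each concentration was tested in 1 library, so the 4 concentrations of a compound stand in for its replicates and their spread holds the response to concentration too. The deposited library of azoxystrobin at 100 nM held the same count as the second DMSO library for each gene and was dropped, whereas the next closest of the 120 pairs of libraries differed in 22355 genes.

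Strobilurins are fungicides that block complex III of the mitochondrial respiratory chain. Azoxystrobin and picoxystrobin carry a methoxyacrylate group, trifloxystrobin an oximinoacetate group and pyraclostrobin a methoxycarbamate group. Nuclear noncoding RNAs act inside the nucleus. Malat1 gathers in nuclear speckles next to splicing factors, and Neat1 is the scaffold of the paraspeckles. Meg3 and Kcnq1ot1 are imprinted, Meg3 from the maternal and Kcnq1ot1 from the paternal copy, and Kcnq1ot1 silences neighbouring genes on the chromosome it comes from. snoRNA host genes are transcribed for their introns, which are cut into snoRNAs that guide the modification of ribosomal RNA. The spliced exons of such hosts are often removed by nonsense-mediated decay, which depends on translation, and Gas5 is known for the accumulation of its spliced RNA in cells that stop growing.

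Many snoRNA hosts start like the mRNAs of ribosomal proteins, with a C followed by a run of C and T called a 5′ terminal oligopyrimidine tract (5′TOP). The stretch from 60 bases before to 30 bases after the start listed by RefSeq (GRCm38.p6) is shown for the 3 hosts and the 2 nuclear RNAs on which the results below turn, in lower case, with capitals for a C followed by at least 4 C or T beginning within 5 bases of that start.
Gas5: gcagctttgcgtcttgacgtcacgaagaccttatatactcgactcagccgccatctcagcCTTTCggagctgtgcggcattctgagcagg
Snhg12: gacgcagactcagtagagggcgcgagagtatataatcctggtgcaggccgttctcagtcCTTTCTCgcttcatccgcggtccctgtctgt
Snhg1: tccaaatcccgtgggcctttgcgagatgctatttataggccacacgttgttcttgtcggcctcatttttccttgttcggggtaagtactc
Malat1: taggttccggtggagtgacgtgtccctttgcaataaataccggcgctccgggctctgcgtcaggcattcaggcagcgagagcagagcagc
Kcnq1ot1: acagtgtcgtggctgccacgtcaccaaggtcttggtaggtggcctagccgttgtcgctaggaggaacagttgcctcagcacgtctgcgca

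Such a start was found for Gas5 and Snhg12 and not in the windows of Snhg1, Malat1 and Kcnq1ot1. It occurs in 18.3% of the 32851 promoters in the same table. The windows of Snhg12 (chr4:132308618-132308707, plus strand) and Snhg1 (chr19:8723427-8723516, plus) lie at the start of each gene. That of Gas5 (chr1:161035106-161035195, plus) lies inside the annotated gene, at the second of 2 starts listed by RefSeq and the one with 14 annotated starts within 25 bases. The first Gas5 start, at position 161034601 with 1 annotated start, has no such pyrimidine run. The windows of Malat1 (chr19:5802643-5802732) and Kcnq1ot1 (chr7:143296518-143296607) are on the minus strand. The promoter of the second Gas5 start, and not that of the first, also holds the cAMP response element TGACGTCA, which reads the same on both strands and occurs in 1.79% of the promoters. No promoter was listed for Neat1.

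In GENCODE M21 (GRCm38), Malat1 (chr19:5795690-5802672) and Neat1 (chr19:5824708-5845478) lie close to each other, each as 1 merged exon block. Kcnq1ot1 (chr7:143203458-143296549) is a single exon of 93092 bases within Kcnq1, on the opposite strand. Gas5 (chr1:161034422-161038539) holds 10 annotated snoRNA genes, Snhg1 (chr19:8723475-8726443) holds 8 and Snhg12 (chr4:132308623-132311024) holds 5. Some host transcripts retain these introns, so that 17.8% to 20.9% of the exonic bases of the 3 hosts are shared with snoRNA genes on the same strand. Whether reads over shared bases were counted, and whether strand was used, is not given in the sources used here. All snoRNA and other small RNA rows inside the 8 genes were at 0 in the 15 libraries, so no snoRNA level is given here.

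Libraries held 12292390 to 18188099 counts, of which the 8 RNAs took 0.0649% to 0.0974%. Levels are given in CPM, for which each count is divided by its library's total and by a TMM factor (0.932 to 1.03). As for the labelled neural cells, the summed level of 8 neural progenitor markers ranged from 2942 to 3677 CPM and none of them was at 0, whereas Rbfox3 and Stmn2 of 7 neuron markers and Aqp4 of 8 glia markers were at 0 in the 15 libraries. Of the neuron markers, 5 stayed under 1 CPM in all 15 libraries, as did 3 of the glia markers and 1 of the progenitor markers. The minimum level for testing, given below, was passed by 5 progenitor, 2 neuron and 2 glia markers. The summed neuron markers ranged from 128 to 172 CPM and the summed glia markers from 1297 to 1668 CPM. Across the tested genes, the log2 change of a treated library from the DMSO mean went with the GC content of the transcript (r from -0.74 for picoxystrobin at 300 nM to 0.20 for picoxystrobin at 1000 nM) and with the log of its length (r from -0.43 for azoxystrobin to -0.07 for trifloxystrobin at 30 nM). The 2 DMSO libraries also differed from each other by GC content (r = 0.40 and -0.40 against their own mean) and little by length (r = 0.04 and -0.04). Kcnq1ot1 lies at an end of both scales, being longer than 99.98% of the tested genes and, with 40.3% GC, richer in GC than only 7.35% of them. Few tested genes are of such length, so the correction for GC content and length used below rests there on few genes. Whether length or GC content brought about a change of Kcnq1ot1 was not tested.

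Meg3 and Snhg3 were not detectable at a level that could be tested. Meg3 had 0 counts in the 15 libraries, where 3 counts over all of them would be 0.0127 CPM, and its imprinted neighbours Rian and Dlk1 were at 0 as well. Snhg3 had 1 count in the first DMSO library, 1 and 2 counts for picoxystrobin at 30 and 300 nM, and 0 in the other libraries. Snhg3 shares 29.8% of its exonic bases with Rcc1 and Snora73a on the same strand and 71.5% with a gene on the opposite strand, so that its level is uncertain. These limits cover counting error only. The other 6 RNAs passed the minimum average of 10 CPM, among 9758 genes tested.

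Per kilobase of exonic sequence, the levels of the 6 RNAs in the 2 DMSO libraries spread widely. Exonic sequence here merges all annotated transcripts of a gene. For Snhg1 and Snhg12 this makes 1 block over the whole gene, introns included, so the order depends on the annotation. Malat1 was highest, with 74.2 and 73.2 CPM per kilobase. It was followed by Snhg12 with 25.01 and 28.3 and Snhg1 with 22.9 and 24.6 CPM per kilobase. These last 2 neighbours overlapped when all 15 libraries were considered, with a range of 23.8 to 33.5 for Snhg12 and 14.5 to 39.6 for Snhg1. Gas5 came next with 13.0 and 14.7 CPM per kilobase, and its range over the 15 libraries, 5.94 to 16.9, reached into that of Snhg1. Neat1 stood lower at 2.92 and 2.65 CPM per kilobase. Kcnq1ot1 was at 0.328 and 0.323, below Neat1 in each library. Most of its 93092 bases thus carried few reads each, and its counts were 169 to 512 per library.

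Kcnq1ot1 was the member that stood farthest from the controls, and it was lower after pyraclostrobin and picoxystrobin. In the 2 DMSO libraries it was at 30.6 and 30.1 CPM, and at 33.3 CPM with azoxystrobin at 1000 nM. With pyraclostrobin at 30, 100, 300 and 1000 nM it was at 17.0, 13.8, 12.8 and 12.2 CPM. All 4 pyraclostrobin libraries were below both controls, and at 100 nM no other tested gene had a log2 change as low. With picoxystrobin at the same concentrations Kcnq1ot1 was at 22.4, 19.6, 23.4 and 13.9 CPM, again below both controls throughout. With trifloxystrobin it was at 36.9, 26.5, 26.2 and 19.9 CPM, above the controls at the lowest concentration and below them at the others.

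**Figure D1:**
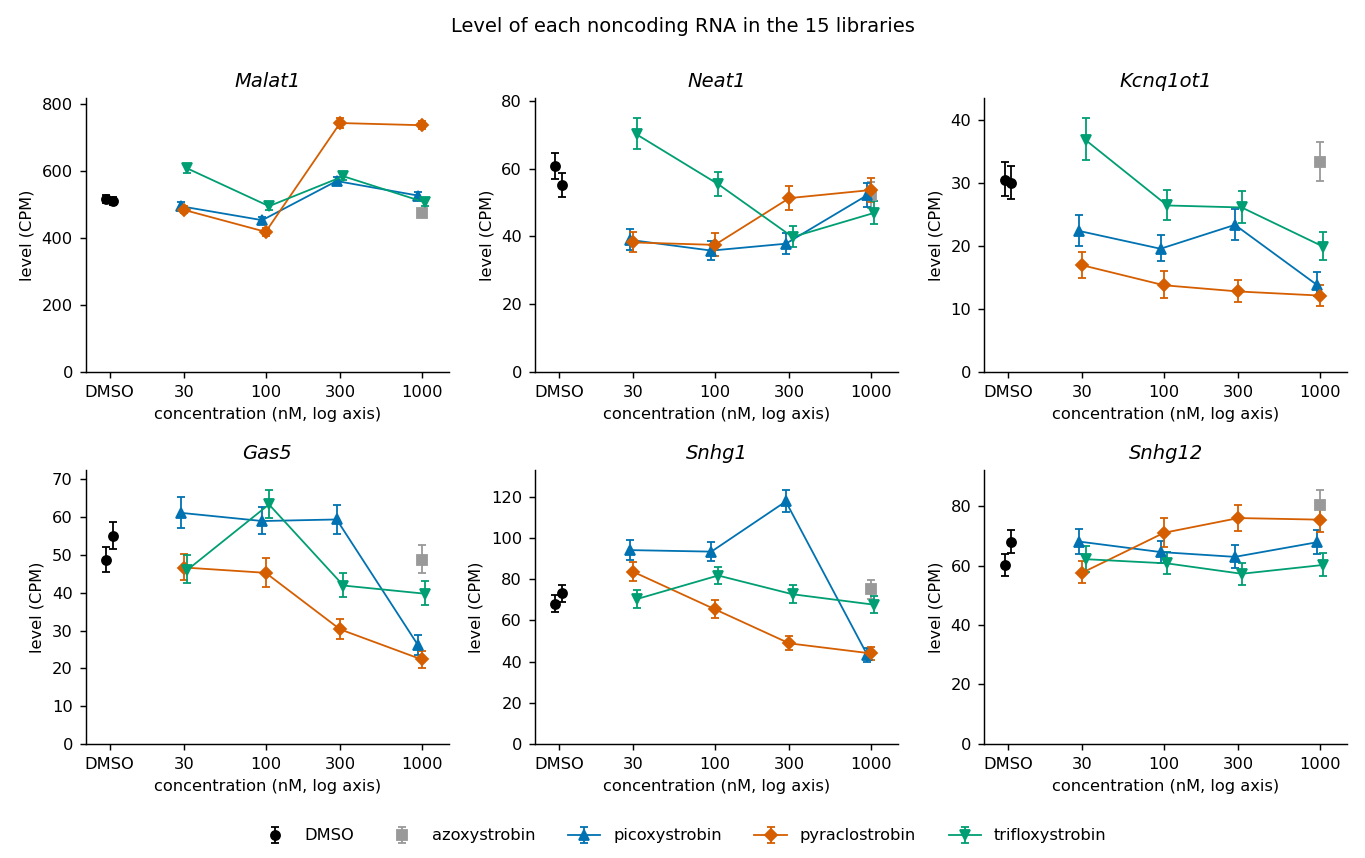
Level in CPM (linear axes from 0) of the 6 tested RNAs in each of the 15 libraries, against concentration in nM on a log axis, with DMSO placed at the left. Symbols are single libraries, bars are 95% Poisson intervals of the count, and lines join the concentrations of a compound. Kcnq1ot1 is at 12.2 to 17.0 CPM with pyraclostrobin against 30.1 and 30.6 CPM in DMSO, Gas5 and Snhg1 are lowest with picoxystrobin and pyraclostrobin at 1000 nM, and Malat1 is at 738 and 744 CPM with pyraclostrobin at 1000 and 300 nM.

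Each compound was compared with DMSO with the quasi-likelihood test of edgeR and Benjamini-Hochberg adjustment over all tested genes. For pyraclostrobin, 1 of the 6 RNAs was called, against 2.12% of all tested genes, and the same RNA was the 1 of 6 at an unadjusted p under 0.05, against 25.8%. The RNA was Kcnq1ot1, which fell to 0.460 of the DMSO level, a log2 difference of -1.12 ± 0.22 (SE, 95% confidence interval -1.58 to -0.66, adjusted p = 0.0320), with 0.020% of the tested genes lower. In the 4 pyraclostrobin libraries, change over all genes went with length (r from -0.39 to -0.19) and GC content (r from -0.38 to -0.10). The call of Kcnq1ot1 held in 5 of 6 alternative settings. Among them was DESeq2 (log2 difference -1.11, adjusted p = 0.000401), which also called more of all genes. The call was lost when GC content and transcript length were taken into account, where the log2 difference shrank to -0.45 (adjusted p = 0.0502). It also held in only 8 of the 15 fits that left out 1 library, with log2 differences from -1.23 to -1.06 (adjusted p 0.00825 to 0.359, the highest without the first DMSO library). Since the RNA is from whole cultures, fewer cells of a kind and less RNA per cell cannot be told apart.

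For picoxystrobin, 0 of the 6 RNAs were called by edgeR, against 0.041% of all tested genes, with 2 at an unadjusted p under 0.05 (19.2% of all genes) and 0 called by DESeq2. These 2 were Kcnq1ot1, at 0.654 of the DMSO level (log2 difference -0.61 ± 0.22 SE, adjusted p = 0.184, and -0.28 with the correction for GC and length), and Neat1. Neat1 was at 60.7 and 55.1 CPM in DMSO and at 39.0, 35.8, 37.9 and 52.2 CPM with picoxystrobin at 30 to 1000 nM. The 3 lower concentrations formed a group well under the controls, while the highest came close to them. The log2 difference over the 4 libraries was -0.49 ± 0.21 (SE, adjusted p = 0.227). Without picoxystrobin at 1000 nM it was -0.63 (adjusted p = 0.0310), in a fit that called 2660 of all genes. These 3 libraries are also those in which change followed GC content most (r from -0.63 to -0.74), with genes poor in GC tending to be higher. With the correction for GC and length together, the log2 difference of Neat1 over the 4 libraries was -0.30. The GC content of Neat1 itself is 47.3%, above that of 40.7% of the tested genes, and with 20771 bases it is longer than 99.9% of them. Whether GC content or length bears on the values of Neat1 was not tested.

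Trifloxystrobin and azoxystrobin against DMSO gave 0 calls among the 6 RNAs by edgeR and by DESeq2, and 0% of all tested genes were called by edgeR. At an unadjusted p under 0.05 there were 0 of the 6 RNAs for trifloxystrobin, against 124 or 1.27% of all genes, and 1 for azoxystrobin, against 161 or 1.65% of all genes. DESeq2 called 0 and 1 genes in all, respectively. The 1 RNA was Snhg12, at 60.1 and 68.0 CPM in DMSO and 80.5 CPM in the azoxystrobin library (log2 difference 0.33 ± 0.15 SE, adjusted p = 0.999, and 0.22 with the GC and length correction). With 1 library azoxystrobin has no spread of its own and was assumed to vary as the other groups did. For trifloxystrobin the log2 differences of the 6 RNAs lay between -0.15 and 0.09, and the 95% confidence interval for Kcnq1ot1 ran from -0.62 to 0.31.

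**Figure D2:**
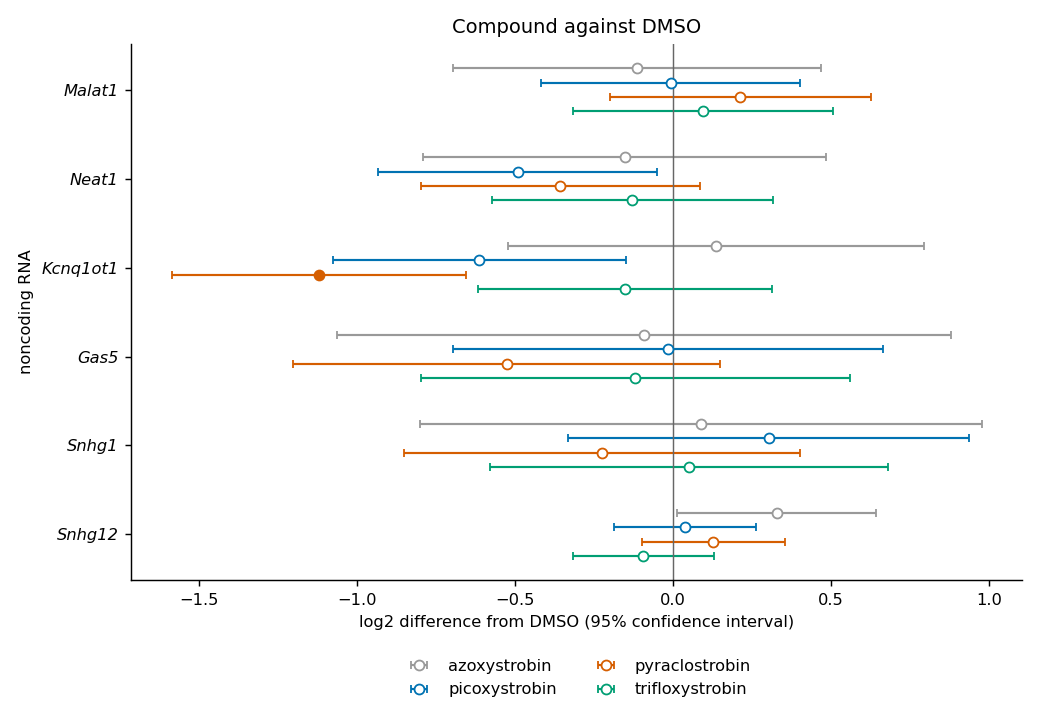
Log2 difference from DMSO with its 95% confidence interval for each compound and each of the 6 tested RNAs. A filled symbol marks an adjusted p under 0.05, which is met by Kcnq1ot1 with pyraclostrobin (-1.12) alone, and the open symbols include Kcnq1ot1 (-0.61) and Neat1 (-0.49) with picoxystrobin.

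Whether the RNAs moved with concentration was asked within each compound, as the slope in log2 units per 10-fold concentration, to which the DMSO libraries do not contribute. On pyraclostrobin the snoRNA hosts Gas5 and Snhg1 had negative slopes and Malat1, Neat1 and Snhg12 had positive slopes, but none passed the adjustment. Of the 6 RNAs, 0 were called by edgeR for pyraclostrobin, against 2.96% of all tested genes, although 5 had an unadjusted p under 0.05 (21.3% of all genes) and DESeq2 called 2 of them, Gas5 and Malat1, against 7.6% of all genes. Gas5 was at 48.7 and 55.1 CPM in DMSO and at 46.7, 45.3, 30.3 and 22.3 CPM with pyraclostrobin at 30, 100, 300 and 1000 nM, with all 4 values below both controls. Its slope was -0.74 ± 0.24 (SE, adjusted p = 0.0998), or a factor of 0.597 per 10-fold concentration. With DESeq2 it was -0.75 (adjusted p = 0.0220).

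Snhg1 was at 68.1 and 73.0 CPM in DMSO and at 83.6, 65.4, 48.8 and 43.9 CPM with growing pyraclostrobin, thus above both controls at the lowest concentration and below both at the others. Its slope was -0.63 ± 0.24 (SE, adjusted p = 0.154). Snhg12, the third host, was at 57.6, 71.0, 76.0 and 75.4 CPM, with a slope of 0.25 ± 0.09 (SE, adjusted p = 0.149). The slopes of the hosts therefore did not share a sign. With the GC and length correction the slopes of Gas5 and Snhg1 were -0.86 and -0.76 and were called (adjusted p = 0.0248 and 0.0200), in a fit that called 8.68% of all tested genes.

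Malat1, the most abundant of the RNAs, was at 518 and 511 CPM in DMSO and at 485, 419, 744 and 738 CPM with pyraclostrobin at 30 to 1000 nM. The 2 lower concentrations were below the controls and the 2 higher above them, with no overlap. The slope was 0.51 ± 0.15 (SE, adjusted p = 0.0827), and the mean of the 300 and 1000 nM libraries exceeded the 30 and 100 nM libraries by 0.71 on the log2 scale (adjusted p = 0.00888, with 7.76% of all genes called). Outside pyraclostrobin Malat1 stayed between 454 and 609 CPM. Neat1, whose gene lies close to that of Malat1, was at 38.2, 37.5, 51.3 and 53.7 CPM with pyraclostrobin, lower than in DMSO throughout. Its log2 difference from DMSO was -0.36 ± 0.21 (SE, adjusted p = 0.287) and went to -0.0061 with the GC and length correction (adjusted p = 0.989). The slope of Neat1 was 0.37 ± 0.15 (SE, adjusted p = 0.169). Kcnq1ot1, already low at 30 nM, had a slope of -0.31 ± 0.15 (SE, adjusted p = 0.271), which was -0.082 with the correction.

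For picoxystrobin, 0 of the 6 slopes were called by edgeR or by DESeq2, and 0% of all tested genes by edgeR. An unadjusted p under 0.05 was found for 2 of the 6, against 11.3% of all genes. Gas5 was at 61.2, 58.99, 59.4 and 26.1 CPM, above both controls up to 300 nM and under them at 1000 nM. Snhg1 followed the same course, with 94.1, 93.4, 117.7 and 43.2 CPM. At 1000 nM both RNAs were close to their values with pyraclostrobin at the same concentration. The slopes were -0.69 ± 0.24 for Gas5 and -0.53 ± 0.27 for Snhg1 (SE, adjusted p = 0.433 and 0.444). They rested on the 1000 nM library, without which they were -0.04 and 0.32 (adjusted p = 0.955 and 0.472). The slope of Kcnq1ot1, -0.34 ± 0.16 (SE, adjusted p = 0.437), was 0.06 without this library (adjusted p = 0.909) and -0.061 with the GC and length correction (adjusted p = 0.798).

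Trifloxystrobin gave 0 calls among the 6 slopes by edgeR and by DESeq2, with 2 at an unadjusted p under 0.05 against 0.789% of all genes, and 0% of all tested genes were called. The 2 were Kcnq1ot1, whose slope of -0.53 ± 0.15 (SE, adjusted p = 1.00) was the lowest of the tested genes and -0.21 with the GC and length correction, and Neat1. Neat1 was at 70.1, 55.4, 39.8 and 46.9 CPM with trifloxystrobin at 30 to 1000 nM, above both controls at 30 nM and below both at 300 and 1000 nM. Its slope was -0.43 ± 0.14 (SE, adjusted p = 1.00). Its slope was thus negative on trifloxystrobin and positive on pyraclostrobin, and the difference of the 2 slopes was 0.80 ± 0.21 (SE, adjusted p = 0.351). For Malat1 the same difference was 0.62 ± 0.21 (SE, adjusted p = 0.390). None of the 18 differences between slopes was called by edgeR or by DESeq2, and edgeR called 0% of all tested genes for each pair of compounds. At an unadjusted p under 0.05 there were 3 of 6 for pyraclostrobin minus trifloxystrobin (10.2% of all genes), 1 of 6 for picoxystrobin minus trifloxystrobin (1.6%) and 0 of 6 for pyraclostrobin minus picoxystrobin (12.5%).

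**Figure D3:**
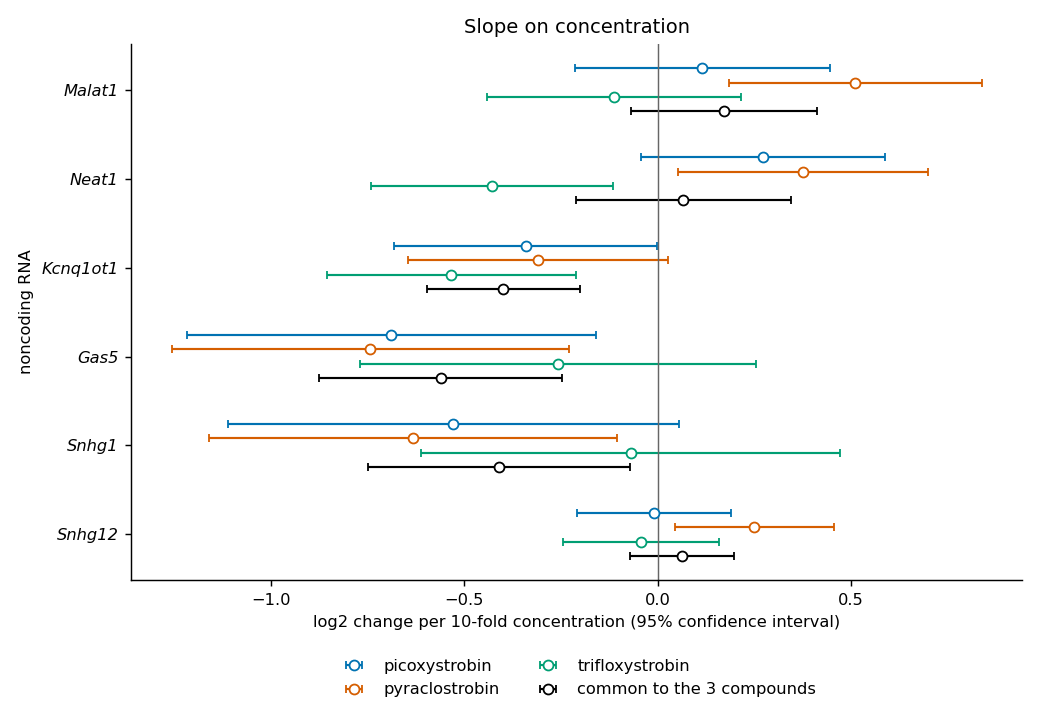
Slope in log2 units per 10-fold concentration with its 95% confidence interval, for picoxystrobin, pyraclostrobin, trifloxystrobin and for a slope common to the 3 compounds, in the 6 tested RNAs. All symbols are open, since no adjusted p was under 0.05. The common slopes of Gas5 (-0.56), Snhg1 (-0.41) and Kcnq1ot1 (-0.40) have intervals below 0.

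Taking 1 slope for the 3 compounds, over the 12 libraries at matched concentrations, 0 of the 6 RNAs were called by edgeR, with 3 at an unadjusted p under 0.05 (14.3% of all genes) and 2 called by DESeq2, and 0% of all tested genes were called by edgeR. Gas5 had a common slope of -0.56 ± 0.14, Snhg1 of -0.41 ± 0.16 and Kcnq1ot1 of -0.40 ± 0.09 (SE, adjusted p = 0.202, 0.276 and 0.202). Only 0.082% of the tested genes had a lower slope than Gas5. The 2 called by DESeq2 were Gas5 and Kcnq1ot1 (adjusted p = 0.0209 for both), against 1.6% of all genes. With GC content and length taken into account the common slope of Kcnq1ot1 shrank to -0.12, while those of Gas5 and Snhg1 remained at -0.56 and -0.41. Malat1, Neat1 and Snhg12 had common slopes of 0.17, 0.07 and 0.06, with intervals that included 0.

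The 3 compounds were then compared with each other at matched concentrations, which makes 3 pairs. For pyraclostrobin against trifloxystrobin, 1 of the 6 RNAs was called, against 0.0307% of all tested genes, and 3 had an unadjusted p under 0.05, against 18.0%. The called RNA was again Kcnq1ot1, 1 of only 3 genes called, which was lower with pyraclostrobin at each of the 4 concentrations. The log2 difference was -0.95 ± 0.12 (SE, 95% confidence interval -1.22 to -0.68, adjusted p = 0.0387), and it missed the threshold when p-values were adjusted over the 3 pairs together (adjusted p = 0.0581). Of 6 alternative settings, 4 kept the call, DESeq2 among them. The call was lost with the correction for GC content and length (log2 difference -0.40, adjusted p = 0.117) and without the concentration term (adjusted p = 0.157). It held in 4 of the 12 fits that left out 1 library (adjusted p 0.0246 to 0.269, the highest without pyraclostrobin at 300 nM). Gas5 was lower with pyraclostrobin than with trifloxystrobin by 0.45 on the log2 scale (adjusted p = 0.225 over genes and 0.345 over the pairs).

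For pyraclostrobin against picoxystrobin, 0 of the 6 RNAs were called by edgeR, against 0.0205% of all tested genes, with 3 at an unadjusted p under 0.05 (11.7% of all genes) and 0 called by DESeq2. The 3 were Gas5, Kcnq1ot1 and Snhg1, with a log2 difference of -0.50 each (adjusted p = 0.367, 0.367 and 0.387). With the GC and length correction that of Kcnq1ot1 was -0.17. Gas5 and Kcnq1ot1 were lower with pyraclostrobin at each of the 4 concentrations, whereas Snhg1 was not at 1000 nM. The 95% confidence interval for Gas5 was -0.87 to -0.14. For picoxystrobin against trifloxystrobin, 0 of the 6 RNAs were called by edgeR and by DESeq2, with 1 at an unadjusted p under 0.05 (8.64% of all genes), and 0% of all tested genes were called. Kcnq1ot1 was lower with picoxystrobin by 0.45 on the log2 scale (95% confidence interval -0.72 to -0.19, adjusted p = 0.555), and the log2 difference was -0.23 with the correction. Over the 3 pairs, log2 differences lay between 0.09 and 0.22 for Snhg12 and between -0.11 and 0.19 for Malat1.

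**Figure D4:**
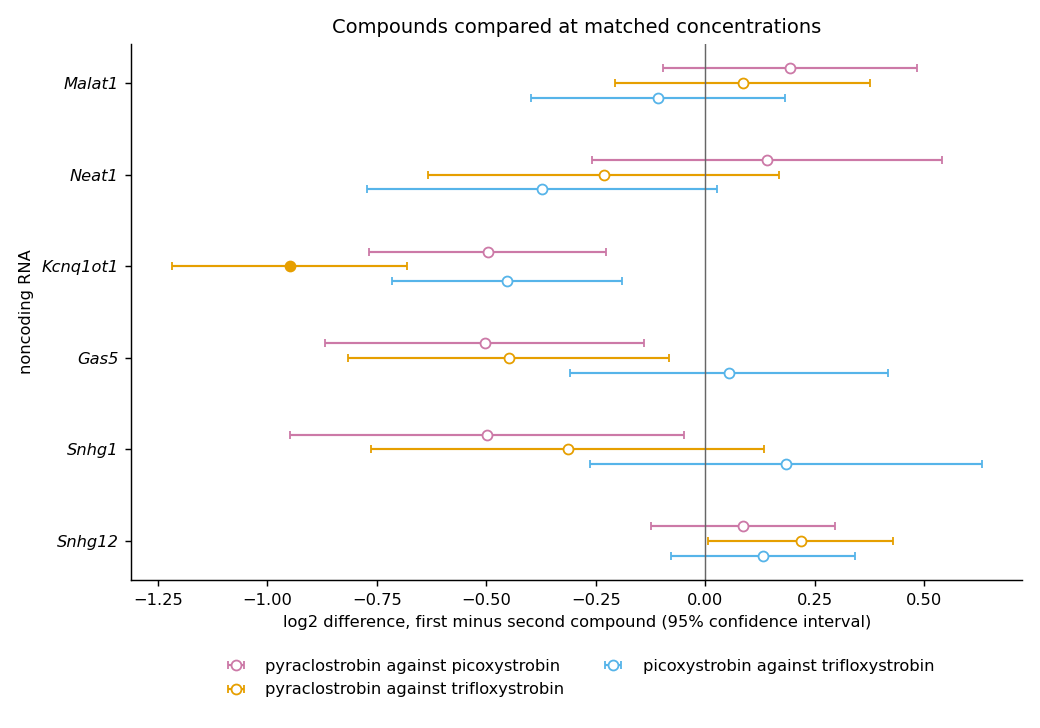
Log2 difference between compounds at matched concentrations, with its 95% confidence interval, for the 3 pairs of compounds and the 6 tested RNAs. The filled symbol is Kcnq1ot1 in pyraclostrobin against trifloxystrobin (-0.95, adjusted p = 0.0387 over genes). Gas5, Snhg1 and Kcnq1ot1 lie at -0.50 in pyraclostrobin against picoxystrobin.

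The other snoRNA host noncoding RNAs were examined in the same way. Of 18 other hosts listed, 15 were in the tables and 9 were tested, among them Mir17hg, a host of microRNAs. The slope on pyraclostrobin was called for 1 of the 9, downward, against 2.96% of all tested genes, and 6 had a negative slope, with a median of -0.42 against 0.00 over all tested genes. The called host, named after its values were seen, was Snhg5, at 44.3 and 48.8 CPM in DMSO and at 53.3, 48.7, 19.2 and 15.5 CPM with pyraclostrobin at 30 to 1000 nM. Its largest step was between 100 and 300 nM. The slope was -1.32 ± 0.22 (SE, adjusted p = 0.0292). On picoxystrobin 0 of the 9 slopes were called and 3 had an unadjusted p under 0.05, against 11.3% of all genes. All 9 were negative, with a median of -0.31 against 0.01 over all tested genes. Their values without the 1000 nM library, on which the slopes of Gas5 and Snhg1 rested, or with the GC and length correction are not given here.

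The 3 other hosts with the smallest p in the common slope were Snhg17, Dancr and Mir17hg, with common slopes of -0.28, -0.34 and -0.75 (adjusted p = 0.202, 0.202 and 0.217). Mir17hg, which stands in the list although it is a host of microRNAs, was at 12.7 and 11.2 CPM in DMSO and at 4.83 and 4.17 CPM with picoxystrobin and pyraclostrobin at 1000 nM. Snhg8 and Snhg15 had positive slopes on pyraclostrobin, of 0.28 and 0.53, which were not called (adjusted p = 0.396 and 0.0529). Against DMSO, 0 of the 9 other hosts were called by edgeR for pyraclostrobin, against 2.12% of all tested genes, with 2 at an unadjusted p under 0.05, against 25.8%, and the median log2 difference was -0.39 against 0.00 over all genes.

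**Figure D5:**
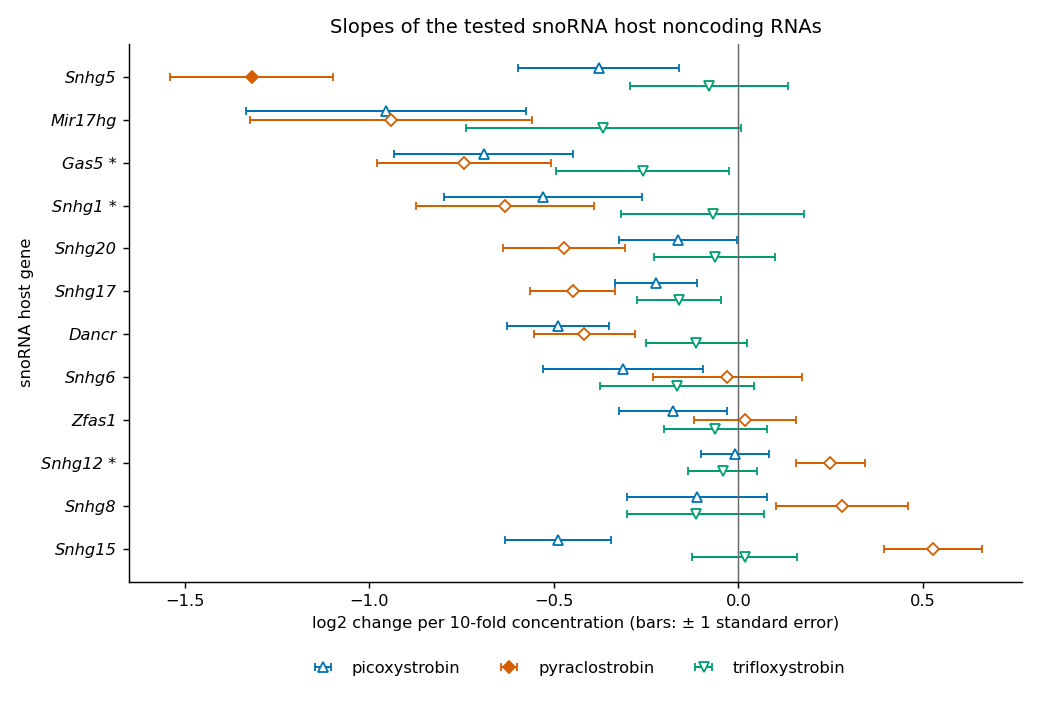
Slope in log2 units per 10-fold concentration, with bars of 1 standard error, for the 12 tested genes listed as snoRNA hosts and 3 compounds, ordered by the slope on pyraclostrobin, with a star after Gas5, Snhg1 and Snhg12. The 12 include Mir17hg, a host of microRNAs. The filled symbol is Snhg5 with pyraclostrobin (-1.32, adjusted p = 0.0292), and the slopes on pyraclostrobin run from there to 0.53 for Snhg15.

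Among proteins that act on these RNAs, nonsense-mediated decay factors degrade spliced host exons. Of 13 tested factors, 1 had a called negative slope on pyraclostrobin, against 2.96% of all tested genes. This was Smg6, the endonuclease of the pathway (slope -0.45 ± 0.10 SE, adjusted p = 0.0438), named after its values were seen. The median slope of the 13 factors on pyraclostrobin was -0.03. The 3 with the smallest p in the common slope were Smg1, Smg6 and Upf3a, at -0.24, -0.16 and 0.10 (adjusted p = 0.202, 0.386 and 0.489).

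Paraspeckle proteins assemble on Neat1. All 12 listed were tested, and 1 had a called slope on pyraclostrobin, upward, against 2.96% of all tested genes. It was Pspc1, a core component, at 43.8 and 41.6 CPM in DMSO and at 48.4, 49.4, 62.5 and 74.1 CPM with growing pyraclostrobin (slope 0.43 ± 0.10 SE, adjusted p = 0.0470). Of the 12 slopes on pyraclostrobin, 5 were positive and 7 negative, with a median of -0.05 against 0.00 over all tested genes. Neat1 had a positive slope on the same compound that was not called. Hnrnpm and Rbm14 followed Pspc1 by p in the common slope, at -0.28 and -0.18 (adjusted p = 0.276 and 0.354), while Pspc1 was at 0.30 (adjusted p = 0.202). The snoRNP core proteins, which bind the excised snoRNAs, gave 0 calls among 7 tested in any of the comparisons by edgeR, with at most 1 at an unadjusted p under 0.05, and the lowest common slope among the 3 with the smallest p was that of Dkc1 at -0.26 (adjusted p = 0.281), ahead of Nop58 and Nop56.

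In the list of other nuclear noncoding RNAs and imprinted neighbours, 6 of 20 genes were tested and 0 were called in any comparison by edgeR, with at most 2 at an unadjusted p under 0.05. Kcnq1, a potassium channel gene within which Kcnq1ot1 lies, was at 0.0558 to 0.371 CPM. Without a stated strand setting, reads from its unspliced RNA and from Kcnq1ot1 cannot be told apart. Cd81, another gene of this domain, was at 511 and 458 CPM in DMSO with a common slope of 0.18 ± 0.06 (SE, adjusted p = 0.251). Airn, an imprinted antisense RNA, and Tug1 had common slopes of -0.30 and -0.14 (adjusted p = 0.283 and 0.451).

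For each of the 6 RNAs, the 3 other tested genes with the most similar log2 CPM over the 15 libraries were listed by Pearson correlation, as a description, since the libraries share compounds, depth and base composition. Gas5 went with Rpl10 (r = 0.97), Taf1d (r = 0.96) and Mir17hg (r = 0.94). Snhg1 went with Enah (r = 0.96), Angpt1 (r = 0.96) and Trim44 (r = 0.95), and Kcnq1ot1 with Prep (r = 0.95), Ubn2 (r = 0.94) and Apbb1ip (r = 0.94). With pyraclostrobin at 1000 nM the last 3 genes were closer to their DMSO level than Kcnq1ot1 was. Prep, for instance, was at 256.3 and 257.9 CPM in DMSO and at 179 CPM with pyraclostrobin at 1000 nM.

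Malat1 was most like a gene whose symbol appears in the tables as mars-02 (r = 0.92), then Morc4 (r = 0.90) and Utp14b (r = 0.86). Utp14b was at 78.2 and 85.0 CPM in DMSO and at 189 CPM with pyraclostrobin at 1000 nM. Neat1 was most like Parp16 (r = 0.89), Nt5dc3 (r = 0.85) and Atp6v0a2 (r = 0.84). Snhg12, which varied least among the 6, was most like Fth1 (r = 0.81), Atp5k-ps2 (r = 0.80) and Eif1b (r = 0.80).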

How the data were processed

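From total RNA the authors made SENSE libraries (Lexogen), ran single-end sequencing, and deposited raw counts per gene from htseq-count. The submitters' processing notes name Bowtie2 2.3.2.2 and mm10, and the annotation and strand setting are not given in the sources used here. The deposited counts were used as they are, and 0 columns were left out. Groups came from the labels of the samples. Of the 16 deposited libraries 1 was dropped as a repeat.

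The 9758 genes whose average exceeded 10 CPM were scaled by TMM and fitted in edgeR 4.0.16 (R 4.3.3) under its quasi-likelihood model. Threshold and minimum, a Benjamini-Hochberg adjusted p under 0.05 and 10 CPM, follow the study's methods. A model with 1 level per compound gave the comparisons with DMSO. A model with a level and a slope on log10 concentration per compound gave the slopes. Over the 12 libraries at matched concentrations, a common slope and, with concentration as a factor, the 3 pairs of compounds were fitted. Standard errors come from the F statistic. Nothing says that the libraries came from separate cultures, so p-values measure the spread between these libraries, which may be technical. In the comparisons with DMSO this spread is pooled over the compounds and also holds their response to concentration. For 1 concentration the interval of a count is the 95% Poisson interval, which covers counting error only. Depth was 12292390 to 18188099 counts per library.

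The members and lists were chosen with earlier results of these data known. Named are the 8 RNAs, up to 3 genes per list with the smallest p in the common slope, and the 3 genes most correlated with each RNA. Alternatives were RLE size factors, filterByExpr, no filter, DESeq2 1.42.0, an offset for GC content and transcript length (natural splines, 4 degrees of freedom, GENCODE M21), all 16 libraries, 300 and 1000 against 30 and 100 nM, no concentration term, and each library left out. Scripts were tested on simulated data. Python 3.11.15, pandas 2.3.3 and matplotlib 3.10.9 made tables and figures. The difference from DMSO of the nonsense-mediated decay factors is not reported here.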

Additional observations from a re-analysis of the deposited data

Results flagged for a closer look

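Gas5 with picoxystrobin at 1000 nM, at 26.1 CPM, stood apart from the other 3 picoxystrobin libraries, at 58.99 to 61.2 CPM, and its gap to the nearest of them was 0.938 of the range of the group, above the critical value of 0.829 for 4 libraries. This was the single case among 18 groups of 4 libraries examined, and chance gives about 1 in 20. The 4 libraries are 4 concentrations and not replicates. Snhg1 was lowest in the same library, at 43.2 CPM.

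Kcnq1ot1 differed between pyraclostrobin and trifloxystrobin at matched concentrations, by -0.95 on the log2 scale (edgeR, adjusted p = 0.0387 over genes and 0.0581 over the 3 pairs), and was lower with pyraclostrobin at 4 of 4 concentrations. The call was kept in 4 of 6 alternative settings. It was lost in the others, with the correction for GC content and length (log2 difference -0.40) and without the concentration term. It held in 4 of the 12 fits that left out 1 library.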

How the results depend on the processing

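No paired analysis was possible because only the DMSO titles carry replicate numbers, and the compounds were matched by concentration, as a factor in the fit of the pairs of compounds. Values below are log2 differences or slopes per 10-fold concentration, and the cause of each shift was not tested. RLE size factors and filterByExpr changed no call among the 6 RNAs in any of the 14 comparisons.

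The number of the 6 RNAs called changed as follows. Without a filter on low counts, 1 was called for picoxystrobin and 2 for pyraclostrobin against DMSO, 2 slopes for picoxystrobin and 3 for pyraclostrobin, 2 differences of slopes for pyraclostrobin minus trifloxystrobin, 3 common slopes, 3 for pyraclostrobin against picoxystrobin and 2 for pyraclostrobin against trifloxystrobin. The share of all genes called without a filter is not given here, so these gains cannot be read as particular to the RNAs. DESeq2 called 2 slopes for pyraclostrobin (7.6% of all tested genes) and 2 common slopes (1.6%). The GC and length offset left 0 for pyraclostrobin against DMSO and 0 against trifloxystrobin, and called 2 slopes for pyraclostrobin (8.68% of all tested genes). The 300 and 1000 against 30 and 100 nM comparison called 1 for pyraclostrobin (7.76% of all tested genes). Without a concentration term 0 were called for pyraclostrobin against trifloxystrobin.

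With 1 library left out, the number called ranged from 0 to 1 for picoxystrobin and for pyraclostrobin against DMSO and for pyraclostrobin against trifloxystrobin, and from 0 to 3 for the slopes of picoxystrobin and of pyraclostrobin. Kcnq1ot1 against DMSO was lost for pyraclostrobin without the first or second DMSO library (adjusted p = 0.359 and 0.216), picoxystrobin at 30 or 100 nM (0.0570 and 0.0542), pyraclostrobin at 300 or 1000 nM (0.123 and 0.0874) or trifloxystrobin at 300 nM (0.0562). Against trifloxystrobin it was lost without picoxystrobin at 30 or 100 nM (0.0848 and 0.121), pyraclostrobin at 30, 100 or 300 nM (0.191, 0.0896 and 0.269) or trifloxystrobin at 30, 300 or 1000 nM (0.228, 0.196 and 0.130). Calls were gained for Neat1 without picoxystrobin at 1000 nM, for the picoxystrobin slopes of Gas5, Snhg1 and Kcnq1ot1 without picoxystrobin at 300 nM (adjusted p = 0.0248, 0.0240 and 0.0280), and for the pyraclostrobin slopes of Gas5, Malat1 and Snhg1 without picoxystrobin at 300 nM (0.0237, 0.0382 and 0.0120) or 1000 nM (0.0121, 0.0299 and 0.00511). Calls over all genes rose too. With 1 library left out they reached up to 1489 for the picoxystrobin slope and 1535 for the pyraclostrobin slope, against 0 and 289 in the main fit. The number of all genes called for pyraclostrobin against DMSO went from 207 to 921 with DESeq2, 1195 without a filter, and 0 to 1247 with 1 library left out.

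Signs turned for values near 0. With all 16 libraries Gas5 was at 0.0011 for azoxystrobin against DMSO. For picoxystrobin against DMSO, Malat1 was at 0.0093 with filterByExpr and 0.010 without a filter, and Gas5 at 0.0011 and 0.00010. With the GC and length offset, Snhg12 was at -0.093 for picoxystrobin and -0.034 for pyraclostrobin against DMSO and 0.024 for the picoxystrobin slope (0.011 without a filter), Snhg1 at -0.0070 for trifloxystrobin against DMSO, Neat1 at 0.035 for pyraclostrobin against trifloxystrobin, Gas5 at -0.10 for picoxystrobin against trifloxystrobin, and the Kcnq1ot1 slope difference of pyraclostrobin minus picoxystrobin at -0.021 (-0.14 for 300 and 1000 against 30 and 100 nM).

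Ranges that crossed 0 with 1 library left out were, against DMSO, -0.18 to 0.0011 for Gas5 with azoxystrobin, -0.059 to 0.047 for Malat1, -0.11 to 0.20 for Gas5 and -0.048 to 0.13 for Snhg12 with picoxystrobin, and -0.0078 to 0.10 for Snhg1 with trifloxystrobin. Slopes on picoxystrobin ran from -0.046 to 0.55 for Neat1, -0.49 to 0.055 for Kcnq1ot1, -1.12 to 0.32 for Snhg1 and -0.11 to 0.073 for Snhg12, and slopes on trifloxystrobin from -0.16 to 0.026 for Malat1 and -0.27 to 0.053 for Snhg1. Slope differences of pyraclostrobin minus picoxystrobin ran from -0.17 to 0.42 for Neat1, -0.37 to 0.18 for Kcnq1ot1, -0.69 to 0.43 for Gas5 and -0.95 to 0.49 for Snhg1, and of picoxystrobin minus trifloxystrobin from -0.92 to 0.22 for Gas5, -1.05 to 0.39 for Snhg1 and -0.072 to 0.12 for Snhg12. Common slopes ran from -0.041 to 0.23 for Neat1 and -0.0082 to 0.10 for Snhg12. Between compounds, the ranges were -0.013 to 0.27 for Neat1 (pyraclostrobin against picoxystrobin), -0.043 to 0.19 for Malat1 (pyraclostrobin against trifloxystrobin), and -0.11 to 0.23 for Gas5 and -0.058 to 0.39 for Snhg1 (picoxystrobin against trifloxystrobin). Scaling by the total count alone moved 3 of 120 CPM values by more than the spread of their group. Kcnq1ot1 rests on 169 to 512 counts per library, and the single library per concentration limits the precision.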

Other observations

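Only snoRNA genes with a symbol that is unique in the annotation and present in the count tables were examined here. Of these, 152 overlap an exon of a longer gene on the same strand and 12 of the 152 had any count, whereas 291 of the 1303 that do not had any count.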
